A study of Mus musculus with 6 samples.

Results

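The mRNAs of the mitochondrial respiratory chain were compared between cells given *Ezh2* and cells given *GFP* after optic nerve crush. Members were the protein-coding genes whose GENCODE mouse symbol begins with mt-, Nduf, Uqcr, Atp5, Sdha, Sdhb, Sdhc or Sdhd, or with Cox followed by a digit from 4 to 8. The rule took 111 of the 55573 genes in the count table, of which 21980 are protein-coding. It found 13 genes of the mitochondrial genome and 98 nuclear genes. Of the nuclear genes, 86 carry the symbols of subunits (38 of complex I, 4 of complex II, 8 of complex III, 18 of complex IV and 18 of complex V), and 12 encode assembly factors of complexes I and II. The rule reads symbols and gene types, and no expression value.

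C57BL/6J mice received an adeno-associated virus in the vitreous, AAV2-GFP in the control group or AAV2-Ezh2 in the overexpression group, and all of them had the optic nerve crushed 2 weeks later. Retinal cells were sorted 3 days after the crush. *Ezh2* encodes the histone methyltransferase of the Polycomb complex PRC2, and AAV2 given this way reaches retinal ganglion cells (RGCs) without being limited to them. According to the study's methods, adult mice of both sexes were used, and live cells with CD90.2, the product of *Thy1*, were sorted. There were 3 libraries per group, made from total RNA and labelled as RGCs. The labels do not say that the replicates came from separate animals, so p-values measure the spread between these libraries, which may be technical.

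The respiratory chain moves electrons from NADH and succinate to oxygen and stores the energy as a proton gradient. Complex I (NADH dehydrogenase), complex III (the cytochrome bc1 complex) and complex IV (cytochrome c oxidase) pump protons, complex II (succinate dehydrogenase) feeds in electrons from succinate, and complex V (ATP synthase) uses the gradient to make ATP. The mitochondrial genome encodes a small set of core subunits of complexes I, III, IV and V, and all other subunits, with the whole of complex II, are encoded in the nucleus. Retinal neurons have a high demand for ATP, and photoreceptors are especially rich in mitochondria.

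Libraries held between 30569933 and 35971192 counts. The study excluded 1 Ezh2 library, inferred to be replicate 3, so the main comparison set GFP replicates 1 to 3 against Ezh2 replicates 1 and 2 (5 libraries), and values with replicate 3 (6 libraries) are given beside it. Ezh2 replicate 3 correlated with the other Ezh2 libraries at 0.971 and 0.972 across genes on the log2 scale, and those correlated with each other at 0.988. Levels are in CPM, the counts of a gene relative to the total of its library. A gene passed the test at an adjusted p under 0.05 (edgeR quasi-likelihood test, Benjamini-Hochberg adjustment over all genes tested), and was called where its fold change also exceeded 1.5. *Ezh2* itself was at 28.8, 34.6 and 33.0 CPM in GFP replicates 1 to 3 and at 78.0, 65.3 and 104.8 CPM in Ezh2 replicates 1 to 3.

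The label RGC was checked against markers. The 10 RGC markers summed to 142.5 to 146.1 CPM in GFP and 164.2 to 179.1 CPM in Ezh2 libraries, while *Pou4f2*, which defines many RGCs, stayed at or below 0.0932 CPM in every library. Most of the RGC sum came from *Thy1*, whose product was used for the sort, at 87.2 to 92.6 CPM in GFP and 98.9 to 113.8 CPM in Ezh2 libraries. Muller glia markers, led by *Glul*, summed to 14550 to 15070 CPM in GFP and 8901 to 11350 CPM in Ezh2 libraries, and endothelial markers to 3207 to 3374 CPM and 2331 to 2935 CPM. Most of the endothelial sum came from *Kdr*, at 2276 to 2429 CPM in GFP libraries, and *Flt1*, at 906.0 to 925.8 CPM, while the other 4 endothelial markers (*Pecam1*, *Cldn5*, *Cdh5* and *Tek*) stayed at or below 16.7 CPM in every library. The RGC sum was below that of Muller glia markers in every library. In such bulk samples, fewer cells of a type and less RNA per cell cannot be told apart.

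Most nuclear subunits had slightly higher levels with *Ezh2*, while most mitochondrial-encoded genes with usable counts had lower levels in Ezh2 replicates 1 and 2 and not in replicate 3. Of 103 members tested in the 5 libraries, 0 were called, against a background of 3.8% of all genes, with 41 higher and 4 lower at an unadjusted p under 0.05, where 15.5% of all genes were higher and 13.8% lower. At an adjusted p under 0.05 and any fold, 27 members rose, all of them nuclear subunits, and 2 fell, *mt-Nd1* and *Cox4i2*. The background was 10.1% of all tested genes rising and 7.68% falling, and 14.8% rising among protein-coding genes with at least 100 counts on average. The median log2 fold change was 0.17 over the 82 tested nuclear subunits, 72 of which were above 0, and -0.01 over all genes tested. It was 0.01 over the 12 assembly factors, of which 0 passed, and -0.18 over the 7 mitochondrial-encoded genes with at least 100 counts on average, of which 6 were below 0. The last median was -0.27 without GFP replicate 1 and -0.0993 without Ezh2 replicate 1.

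The counts depended on the library set. With all 6 libraries, 4 members rose, among them *Cox5a*, *Atp5e* and *Ndufa1*, and 1 fell (*Cox4i2*), against backgrounds of 3.08% and 2.7%, and these 5 were all among the 29 of the 5 libraries. *Cox5a* was called there, against 2.53% of all genes. The median of the nuclear subunits was 0.21 and that of the mitochondrial-encoded genes was 0.02. Leaving GFP replicate 3 out of the 5 libraries brought the 27 rising members down to 15, where 1623 of 19952 genes tested rose. Leaving out GFP replicates 1 or 2 brought them to 18 each, where 1826 of 19958 and 1773 of 19851 genes rose. Leaving out an Ezh2 replicate leaves 1 Ezh2 library to compare. The nuclear subunit median was then 0.11 without replicate 2 and 0.22 without replicate 1. That of complex I was 0.0273 and 0.173. Of the 27 members, 3, among them *Cox5a* and *Atp5b*, passed in each of the 5 fits that left out 1 library, and so did both members that fell. Another 5 passed in 4 of these fits, 5 in 3, 12 in 2 and 2 in 1.

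**Figure D1:**
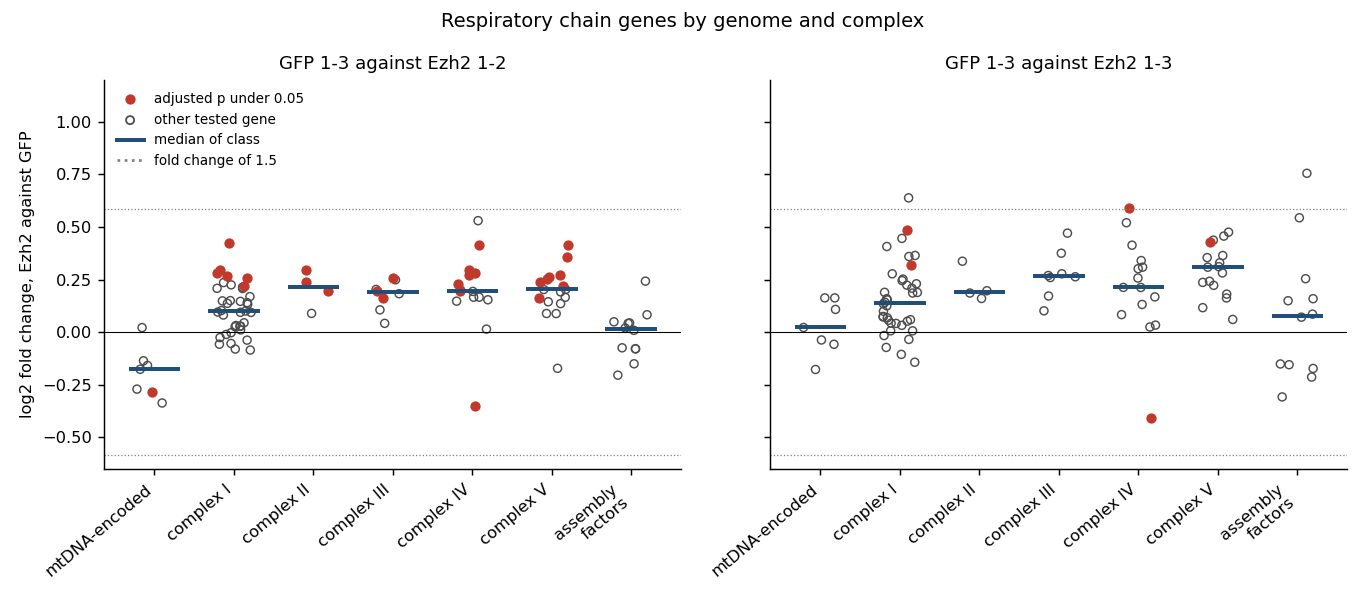
Log2 fold change (vertical axis, Ezh2 against GFP) of each tested member, grouped on the horizontal axis by mitochondrial genome (mtDNA), nuclear complex or assembly factors, in the 5 libraries on the left and the 6 libraries on the right. Filled points passed an adjusted p of 0.05, blue bars are class medians and dotted lines mark a fold change of 1.5; *mt-Co2* and *mt-Co3*, with few counts, are not drawn. The medians of complexes II to V lie near 0.2 on the left, the mtDNA-encoded median lies below 0, and on the right it lies at 0.02.

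A second view used the spread of single libraries. In 48 of 82 nuclear subunits, Ezh2 replicates 1 and 2 both lay above all GFP libraries, and in 1 both lay below. Among all genes tested, 21.5% had Ezh2 above GFP without overlap and 23.4% had it below. Of 12608 protein-coding genes with at least 100 counts on average, 3518 lay above and 3097 below. When replicate 3 was included, 35 of the 82 lay above and 1 below, against 14.9% and 19.3% of all genes. Of the 12608 protein-coding genes, 2490 then lay above and 2584 below. For assembly factors the number was 1 of 12 in either set, *Ndufaf3* at 11.6 to 12.2 CPM in GFP and 12.5 to 16.3 CPM in Ezh2 libraries.

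The mitochondrial-encoded and nuclear members were then summed per library. The 13 mitochondrial-encoded genes summed to 5339, 5846 and 5706 CPM in GFP replicates 1 to 3, and to 4697, 5285 and 7213 CPM in Ezh2 replicates 1 to 3. Only 7 of the 13 had usable counts. The others, *mt-Co2*, *mt-Co3* and *mt-Atp6* among them, had at most 28 counts in any library. These sums and the ratios below therefore hold almost nothing of their mRNA. Ezh2 replicates 1 and 2 lay below the GFP libraries and replicate 3 lay above them. The nuclear subunits summed to 4138, 4058 and 3955 CPM in GFP and to 4352, 4615 and 4863 CPM in Ezh2 libraries, so all 3 Ezh2 libraries lay above GFP. The ratio of the sums averaged 1.39 ± 0.0875 (SD, n = 3) in GFP and 1.11 ± 0.0467 (SD, n = 2) in Ezh2 replicates 1 and 2, and was 1.48 in Ezh2 replicate 3. Without *mt-Co1*, the most abundant member, the ratios were 0.441 ± 0.0441 (SD, n = 3) and 0.339 ± 0.0141 (SD, n = 2), with 0.436 in replicate 3.

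**Figure D2:**
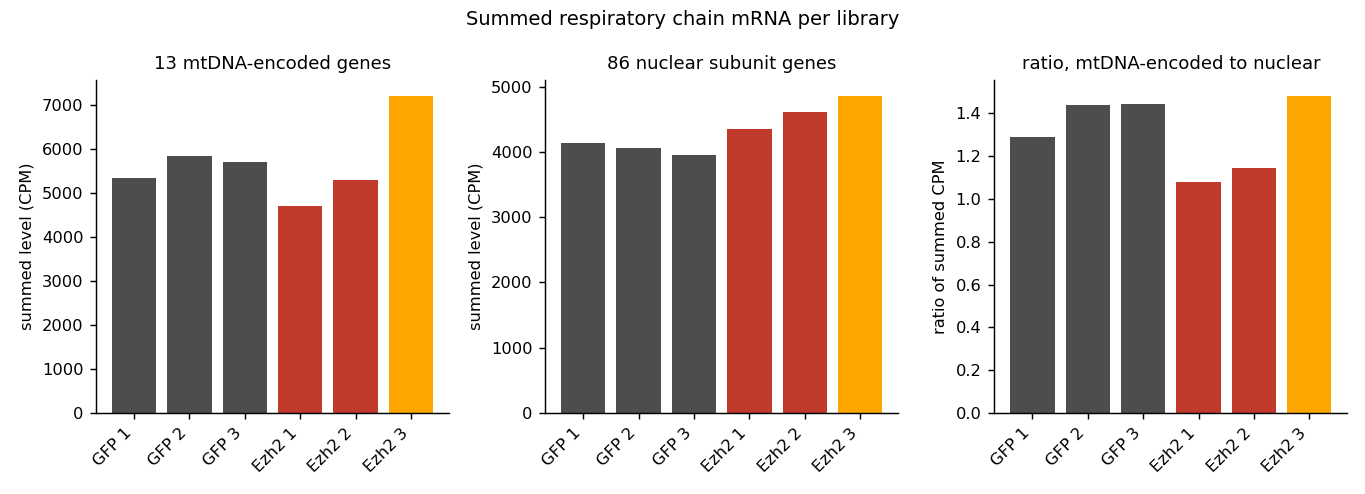
Summed CPM (vertical axis) of the 13 mitochondrial-encoded genes, of the 86 nuclear subunit genes, and the ratio of these sums, 1 bar per library (grey, GFP; red, Ezh2 replicates 1 and 2; orange, Ezh2 replicate 3). Nearly all of the mitochondrial-encoded sum comes from 7 of the 13 genes. The nuclear sum was higher in all 3 Ezh2 libraries, from 4352 to 4863 CPM against at most 4138 CPM, while the ratio was lowest in Ezh2 replicates 1 and 2 at 1.08 and 1.15 and highest in replicate 3 at 1.48.

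Levels of cell type markers also differed between the libraries, in several patterns. Rod markers summed to 478.1 to 561.4 CPM in GFP, to 838.9 and 890.2 CPM in Ezh2 replicates 1 and 2, and to 499.1 CPM in replicate 3. Cone markers summed to 28.75 to 28.98 CPM in GFP and to 66.7, 58.12 and 38.75 CPM in Ezh2 replicates 1 to 3. For microglia and macrophage markers the sums were 1562 to 1753 CPM and 2992, 3547 and 2362 CPM. Among all genes tested in the 5 libraries, 10.1% rose and 7.68% fell. Beside this, 8 of 10 rod markers and 8 of 8 cone markers rose, and 5 of 6 Muller glia and 2 of 6 amacrine markers fell. In the same libraries, 7 of 9 microglia and macrophage markers and 8 of 8 T cell markers rose. T cell markers summed to 374.2 to 392.2 CPM in GFP, to 467.2 and 492.4 CPM in Ezh2 replicates 1 and 2, and to 878.1 CPM in replicate 3. In the 5 libraries, 3 of 9 tested RGC markers, 2 of 6 pericyte and smooth muscle markers and 1 of 6 B and plasma cell markers rose. Of endothelial markers 1 of 6 fell, while 0 of 6 bipolar markers passed. With 6 libraries, 0 rod, 2 cone, 3 microglia and macrophage and 1 T cell markers rose, against 3.08% of all genes tested. There, 3 Muller glia and 2 amacrine markers fell, against 2.7%. Red blood cell markers were at most 0.5004 CPM in sum and were not tested. The part of these cell types in the members' changes was not tested.

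Of the mitochondrial-encoded members, 7 had at least 1091 counts in every library, and 6 had almost none. *mt-Co1*, the catalytic subunit of complex IV (chromosome M, 5328 to 6872, GRCm38), had 105210 to 183228 counts per library. Its neighbours on the same polycistronic transcript were nearly empty: *mt-Co2* had 7 to 14 counts, *mt-Co3* 11 to 28, *mt-Atp6* 1 to 5, *mt-Nd3* 2 to 10, and *mt-Nd4l* and *mt-Atp8* 0 or 1. Of these 6, 5 were covered almost whole by annotated nuclear pseudogenes. Of all windows of 75 bases in *mt-Co2*, 99.5% also occurred in the annotated transcript of the pseudogene *Gm28661*, and the share was 99.9% for *mt-Co3* (*Gm28437*), 99.5% for *mt-Atp6* (*Gm10925*), 98.7% for *mt-Nd4l* (*Gm10222*) and 97.8% for *mt-Nd3* (*Gm28438*). These pseudogenes lie side by side on chromosome 1, between 24612407 and 24615565. For *mt-Nd4*, which had 4375 to 5951 counts, the share was 61.5%, and for *mt-Co1* it was 39.8%. In *mt-Nd1*, *mt-Nd6*, *mt-Cytb* and *mt-Atp8* it was 0%.

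The identity to the nuclear copy can be read from a stretch of 60 bases taken from the middle of *mt-Co2* (positions 311 to 370 of the transcript) and from *mt-Co1* (positions 1063 to 1122), each beside the copy's sequence from GENCODE M21 transcripts. Capitals mark the base at which the pair differs. *mt-Co2* and its copy had 0 mismatches over 681 aligned bases, and *mt-Co1* had 1 over 483.
mt-Co2: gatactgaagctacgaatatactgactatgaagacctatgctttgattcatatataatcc
Gm28661: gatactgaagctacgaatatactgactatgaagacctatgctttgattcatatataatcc
mt-Co1: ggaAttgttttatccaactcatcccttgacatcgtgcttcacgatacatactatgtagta
Gm29216: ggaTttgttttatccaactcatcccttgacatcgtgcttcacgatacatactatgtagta

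Reads from such stretches match more than 1 place, and how multiple matches were counted is not given in the sources used here. The copies themselves held few counts: *Gm28661* had 8 to 28, *Gm28437* 16 to 33 and *Gm28439* 0 in every library. *Gm28438*, the copy of *mt-Nd3*, had at most 3 counts in 5 libraries and 295 in Ezh2 replicate 3. The counts of *mt-Co2*, *mt-Co3*, *mt-Atp6*, *mt-Atp8*, *mt-Nd3* and *mt-Nd4l* are not read as levels of their mRNA here. Of these, only *mt-Co2* and *mt-Co3* passed the filter on low counts in the 5 libraries, at log2 fold changes of -0.08 ± 0.73 and 0.54 ± 0.53 (SE). Sequence outside annotated transcripts was not searched, which leaves *mt-Atp8* without a value for such copies.

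**Figure D3:**
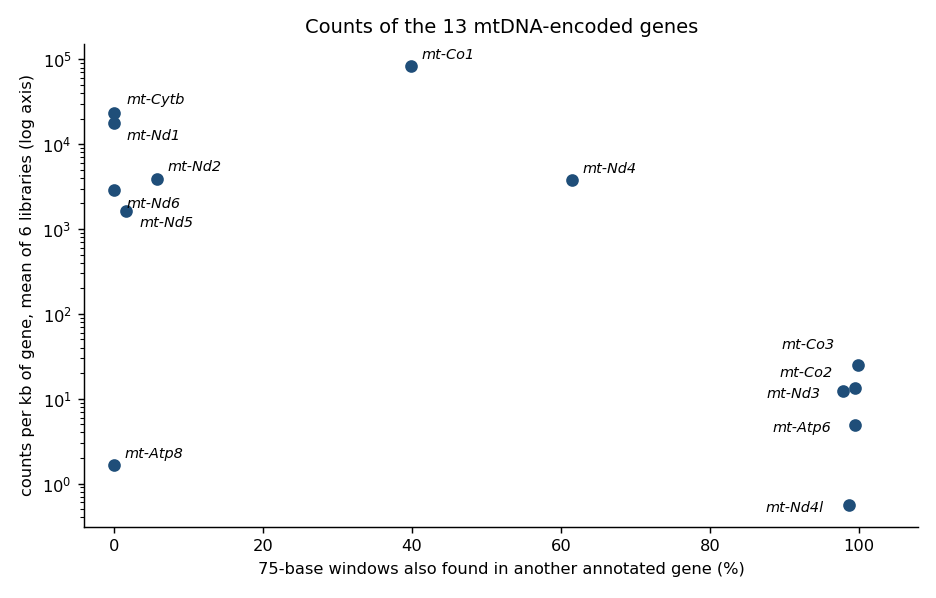
Mean counts per kb of gene over the 6 libraries (vertical log axis) of each of the 13 mitochondrial-encoded genes against the percentage of its 75-base windows that also occur in another annotated gene (horizontal axis). The 5 genes at 97.8% or more all lie at the bottom, with *mt-Atp8* as the other nearly empty gene at 0%, and *mt-Co1* at 39.8% lies highest.

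Among the 7 mitochondrial-encoded genes with counts, *mt-Nd1* fell in the 5 libraries. It encodes the complex I core subunit next to the quinone site (chromosome M, 2751 to 3707) and shares no window with another annotated gene. Its levels were 521.5, 528.9 and 530.2 CPM in GFP and 397.8, 461.4 and 631.8 CPM in Ezh2 replicates 1 to 3. Replicates 1 and 2 were below and replicate 3 above all GFP libraries. The log2 fold change was -0.28 ± 0.06 (SE, edgeR adjusted p = 6.42e-04), and with 6 libraries it was -0.04 ± 0.19 (SE, edgeR adjusted p = 0.918).

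*mt-Co1* and *mt-Nd4* also had Ezh2 replicates 1 and 2 below all GFP libraries, without passing the test, which made 3 of the 7 genes against 23.4% of all genes. Replicate 3 lay above GFP in *mt-Co1* and inside the GFP range in *mt-Nd4*. *mt-Co1* was at 3720, 3916 and 3902 CPM in GFP and at 3267, 3677 and 5094 CPM in Ezh2 libraries, a log2 fold change of -0.14 ± 0.06 (SE, edgeR adjusted p = 0.0957). *mt-Nd4*, a proton-pumping complex I subunit, was at 151.1, 188.0 and 179.0 CPM and at 135.9, 148.2 and 160.9 CPM, a log2 fold change of -0.27 ± 0.09 (SE, edgeR adjusted p = 0.0830). In *mt-Cytb*, the cytochrome b of complex III, the groups overlapped, at 709.5, 929.6 and 830.4 CPM in GFP and 690.1, 755.2 and 984.8 CPM in Ezh2 libraries. *mt-Nd2* and *mt-Nd5* had log2 fold changes of -0.34 ± 0.21 and -0.16 ± 0.08 (SE). *mt-Nd6*, the only one of the 7 encoded on the other strand of the mitochondrial genome, had 0.02 ± 0.16 (SE). When GFP replicate 1, the GFP library with the lowest mitochondrial sum, was left out, 5 mitochondrial-encoded genes fell in place of 1. In that fit 1334 of 19958 genes tested fell. With 6 libraries, 0 mitochondrial-encoded genes passed in either direction. The summed mitochondrial ribosomal RNA was 13800 to 16140 CPM in GFP, 11810 and 13200 CPM in Ezh2 replicates 1 and 2 and 15090 CPM in replicate 3.

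Complex IV held the member with the smallest adjusted p in each direction, *Cox5a* among those that rose and *Cox4i2* among those that fell. Of 15 nuclear subunits tested, 7 rose and 1 fell, against 10.1% and 7.68% of all genes tested, with a median log2 fold change of 0.19. *Cox5a*, a structural subunit on the matrix side of the enzyme (ENSMUSG00000000088, chromosome 9, 57521274 to 57532426), was at 27.9, 31.4 and 30.8 CPM in GFP and at 39.6, 39.9 and 52.0 CPM in Ezh2 libraries. All 3 Ezh2 libraries lay above all GFP libraries. The log2 fold change was 0.41 ± 0.08 (SE), a fold of 1.33, with an edgeR adjusted p of 2.84e-04, and with 6 libraries it was 0.59 ± 0.13 (SE, edgeR adjusted p = 0.0378). A long noncoding RNA, *Gm26631*, overlaps its exons on the opposite strand.

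*Cox6b1*, which links the monomers of the complex IV dimer, was at 55.0, 52.0 and 49.4 CPM in GFP and at 60.7, 66.2 and 90.3 CPM in Ezh2 libraries, again without overlap. It rose by 0.30 ± 0.07 (SE) on the log2 scale, with an edgeR adjusted p of 0.00253, and with 6 libraries the edgeR adjusted p was 0.113. *Cox4i1*, *Cox5b*, *Cox6a1*, *Cox7b* and *Cox8a* rose by 0.19 to 0.28. *Cox7c*, *Cox6c*, *Cox7a2* and *Cox7a2l* had log2 fold changes of 0.01, 0.17, 0.19 and 0.15 and did not pass.

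*Cox4i2* was the nuclear subunit that fell. It encodes an alternative form of subunit 4, is known for its expression in lung and for its increase in low oxygen, and replaces the product of *Cox4i1* in the enzyme. It was at 65.5, 63.9 and 60.6 CPM in GFP and at 48.4, 50.2 and 40.9 CPM in Ezh2 libraries (ENSMUSG00000009876, chromosome 2, 152754173 to 152765037). All Ezh2 libraries were below all GFP libraries. The log2 fold change was -0.35 ± 0.07 (SE, edgeR adjusted p = 3.01e-04), and -0.41 ± 0.09 (SE) with 6 libraries, with an edgeR adjusted p of 0.0276. *Cox4i1* rose, from 139.2, 133.1 and 135.5 CPM in GFP to 143.8 and 164.5 CPM in Ezh2 replicates 1 and 2, with replicate 3 at 137.8 CPM, inside the GFP range (edgeR adjusted p = 0.0179 in 5 and 0.202 in 6 libraries). Without Ezh2 replicate 2 its log2 fold change was 0.08, with no pass. Per kb of exon, the GFP level of *Cox4i2* was 80.4 ± 3.19 CPM per kb (SD, n = 3), close to that of *Cox4i1* at 87.7 ± 1.97 CPM per kb (SD, n = 3). The length used was that of the merged exons of all annotated transcripts, 788 bases for *Cox4i2* and 1550 for *Cox4i1*. Values per kb depend on this length, and in CPM *Cox4i1* was well above *Cox4i2*. Beside this, 5 of 6 Muller glia markers fell, against 7.68% of all genes tested, with a median log2 fold change of -0.25. Of 6 endothelial markers, *Flt1* fell, at -0.29, and *Kdr* was at -0.12 without passing, with a list median of 0.00. Of 6 pericyte and smooth muscle markers, *Abcc9* and *Kcnj8* rose, at 0.69 and 0.68, while *Pdgfrb* and *Acta2* were at -0.05 and -0.17 without passing, and the list median was 0.28. The part of these cell types in the fall of *Cox4i2* was not tested.

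The other alternative subunits of complex IV were low. Per kb of exon in GFP libraries, *Cox6a2*, *Cox7a1* and *Cox6b2* reached 1.14, 2.55 and 5.95 CPM per kb, against 54.9 for *Cox6a1*, 40.4 for *Cox7a2* and 73.6 for *Cox6b1*. These 3 are the forms of heart and skeletal muscle, or of testis in the case of *Cox6b2*, and none of them passed, with log2 fold changes of 0.17 ± 0.44, 0.53 ± 0.32 and 0.15 ± 0.18 (SE). *Cox8c* was at 0 in every library, which allows up to 3 counts or 0.0834 to 0.0981 CPM, and *Cox7b2* and *Cox8b* stayed at or below 0.130 and 0.124 CPM. *Ndufa4*, named for complex I and now regarded as a subunit of complex IV, rose by 0.28 ± 0.08 (SE), from 36.5 to 39.1 CPM in GFP to 41.6, 48.8 and 49.7 CPM in Ezh2 libraries (edgeR adjusted p = 0.0118). Its relative *Ndufa4l2*, which is induced by low oxygen in many cells, was at 2.51 to 4.35 CPM in GFP and 2.78 to 3.91 CPM in Ezh2 libraries.

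**Figure D4:**
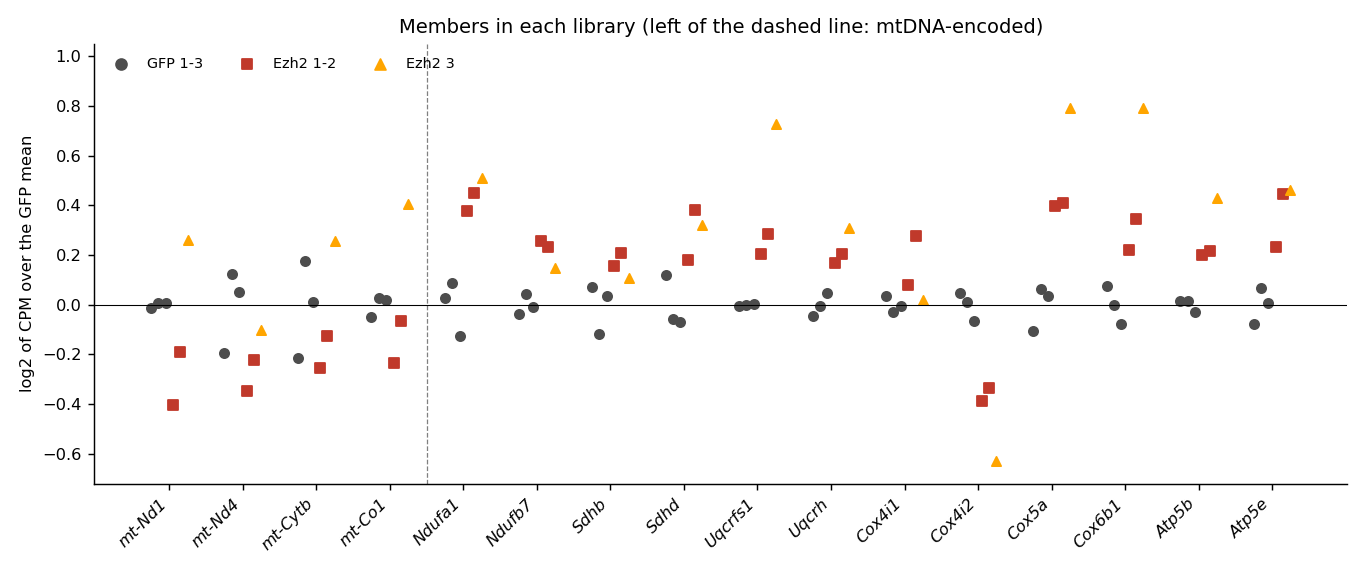
Log2 of the CPM over the GFP mean (vertical axis) of 16 members in each library (grey circles, GFP; red squares, Ezh2 replicates 1 and 2; orange triangles, Ezh2 replicate 3), with 4 mitochondrial-encoded genes left of the dashed line. *Cox5a*, *Cox6b1*, *Atp5b* and *Ndufa1* lie above GFP in all Ezh2 libraries and *Cox4i2* lies below in all, while *mt-Nd1* and *mt-Co1* lie below GFP in Ezh2 replicates 1 and 2 and above it in replicate 3.

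Complex V was the other complex with many rising subunits, 8 of 17 tested, with 0 falling, against 10.1% and 7.68% of all genes. Its median log2 fold change was 0.20 in 5 and 0.31 in 6 libraries. *Atp5b*, the catalytic beta subunit (ENSMUSG00000025393, chromosome 10, 128083273 to 128090391), was at 398.6, 398.2 and 387.1 CPM in GFP and 453.5, 459.1 and 532.0 CPM in Ezh2 libraries. The Ezh2 libraries were above GFP in all 3 cases. It rose by 0.22 ± 0.05 (SE) on the log2 scale, with an edgeR adjusted p of 0.00125, and with 6 libraries the value was 0.33 ± 0.09 (SE, edgeR adjusted p = 0.0592). *Atp5e*, the small epsilon subunit of the central stalk, went from 37.2, 41.0 and 39.3 CPM to 46.0, 53.4 and 54.0 CPM, a log2 fold change of 0.36 ± 0.08 (SE, edgeR adjusted p = 0.00128).

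*Atp5o*, the stalk protein that ties the catalytic head to the membrane part, overlapped between the groups only through Ezh2 replicate 3. It was at 15.4, 22.5 and 16.7 CPM in GFP and 23.9, 24.3 and 18.0 CPM in Ezh2 libraries, and its log2 fold change of 0.41 ± 0.13 (SE, edgeR adjusted p = 0.0287) passed in 1 of the 5 fits that left out a library, the one without GFP replicate 2. The symbol belongs to a pair of gene IDs on chromosome 16, and the other ID was at 0 in every library. Of the 75-base windows of *Atp5o* and *Atp5g2*, 34.2% and 35.8% occur in another annotated gene. *Atp5d* of the central stalk, *Atp5a1* of the catalytic head, *Atp5g2* of the membrane ring, *Atp5j2* and *Atp5mpl* rose by 0.16 to 0.27. The 3 ring genes encode the same mature protein and were at 6.31 (*Atp5g1*), 12.5 (*Atp5g2*) and 25.8 (*Atp5g3*) CPM per kb of exon in GFP. Their merged exons of all annotated transcripts span 4912, 1675 and 2181 bases, so this order depends on the annotated lengths. *Atp5g1* and *Atp5g3* had log2 fold changes of 0.19 ± 0.08 and 0.17 ± 0.07 (SE) and did not pass. *Atp5s* was the one tested complex V symbol below 0, at -0.17 ± 0.18 (SE).

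Complex II, encoded wholly in the nucleus, had 3 of 4 subunits rising, against 10.1% of all genes tested. In 4 of 4, Ezh2 replicates 1 and 2 lay above all GFP libraries, against 21.5% of all genes. With replicate 3 included, 3 of 4 lay above, against 14.9%. *Sdhd*, a membrane anchor, was at 46.9, 41.5 and 41.2 CPM in GFP and 48.9, 56.3 and 54.0 CPM in Ezh2 libraries, a log2 fold change of 0.30 ± 0.08 (SE, edgeR adjusted p = 0.00777). The edgeR adjusted p with 6 libraries was 0.0764. *Sdhc*, the other anchor, and *Sdhb*, the iron-sulfur subunit, rose by 0.24 ± 0.07 and 0.20 ± 0.07 (SE). *Sdha*, the flavoprotein that oxidizes succinate, was at 188.5 to 196.0 CPM in GFP and at 197.0, 208.4 and 231.1 CPM in Ezh2 libraries, a log2 fold change of 0.09 ± 0.05 (SE, edgeR adjusted p = 0.256).

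Complex III had 3 of 8 subunits rising, against 10.1% of all genes tested, and 8 of 8 above 0. *Uqcrfs1*, the Rieske iron-sulfur protein, was at 40.6, 40.7 and 40.9 CPM in GFP and at 46.9, 49.7 and 67.5 CPM in Ezh2 libraries, without overlap. It rose by 0.26 ± 0.07 (SE, edgeR adjusted p = 0.0111). *Uqcrh*, the hinge protein, and *Uqcrc1*, a core protein, rose by 0.20 ± 0.06 and 0.16 ± 0.06 (SE). *Uqcrc2*, the partner core protein, had a log2 fold change of 0.04 ± 0.06 (SE). The median of the complex was 0.19, and 0.27 with 6 libraries.

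Complex I, with the most subunits, had the lowest median of the nuclear complexes in both library sets. Of 38 subunits, 6 rose and 0 fell, against 10.1% and 7.68% of all genes tested, and the median was 0.10. The count of rising subunits lay near the 14.8% that rose among protein-coding genes with at least 100 counts on average. *Ndufa1*, an X-linked accessory subunit needed for assembly, went from 16.0, 16.7 and 14.4 CPM to 20.3, 21.4 and 22.3 CPM, a log2 fold change of 0.42 ± 0.10 (SE), with edgeR adjusted p values of 0.00293 in 5 and 0.0402 in 6 libraries.

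*Ndufa9*, *Ndufb7* and *Ndufb8*, with *Ndufa4*, were also among the 6, at log2 fold changes from 0.22 to 0.29. The core subunits *Ndufs1*, *Ndufv1* and *Ndufv2*, which carry NADH oxidation and the first iron-sulfur clusters, had log2 fold changes of 0.01 ± 0.06, -0.01 ± 0.07 and 0.04 ± 0.08 (SE). *Ndufs1* was at 71.0, 75.7 and 74.3 CPM in GFP and 74.5, 72.8 and 68.8 CPM in Ezh2 libraries, so that its groups overlapped. *Ndufab1*, the mitochondrial acyl carrier protein that is also a complex I subunit, had -0.08 ± 0.09 (SE). The assembly factors *Ndufaf2* and *Ndufaf5* had -0.20 ± 0.19 and -0.15 ± 0.13 (SE) and did not pass.

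Promoter sequence was read for features that the symbols had not used. In the RefSeq promoter table of build GRCm38.p6, 78 of the nuclear symbols were found and 19 were not. The letters GCGCATGC, the core of the element bound by NRF1, a known regulator of respiratory chain genes, occurred on either strand between 250 bases before and 50 after the start in 12 of the 78 (15.4%), against 3.05% of all 27025 genes in the table. The letters CCGGAAGT, a core bound by ETS factors such as GABP, were in 5 (6.41%, against 4.31%), and AAGATGGC, a core bound by YY1, in 10 (12.8%, against 3.19%). The median log2 fold change was 0.18 over the 12 members with the NRF1 letters and 0.15 over the 64 tested members without them.

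The 250 bases before the RefSeq start of *Cox6a1* (chr5:115348959-115349208, minus strand) and *Sdhb* (chr4:140961021-140961270, plus strand), which both rose and hold the NRF1 letters, are given 5′ to 3′ with these letters in capitals. In *Sdhb* they lie on the other strand and appear as GCATGCGC. The marked letters begin 162 bases before the start in *Cox6a1* and 54 bases before it in *Sdhb*. In *Cox6a1* the element reads the same on both strands and its matches overlap. GENCODE M21 places the start of both genes inside these windows, at 115348981 for *Cox6a1* and 140961203 for *Sdhb*. By that annotation the marked letters lie before the start in *Cox6a1* and after it, inside the gene, in *Sdhb*.
Cox6a1: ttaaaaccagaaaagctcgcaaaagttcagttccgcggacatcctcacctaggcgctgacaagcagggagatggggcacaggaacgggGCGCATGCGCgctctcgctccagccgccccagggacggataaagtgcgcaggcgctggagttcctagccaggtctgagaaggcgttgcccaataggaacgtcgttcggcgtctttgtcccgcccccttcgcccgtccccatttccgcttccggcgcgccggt
Sdhb: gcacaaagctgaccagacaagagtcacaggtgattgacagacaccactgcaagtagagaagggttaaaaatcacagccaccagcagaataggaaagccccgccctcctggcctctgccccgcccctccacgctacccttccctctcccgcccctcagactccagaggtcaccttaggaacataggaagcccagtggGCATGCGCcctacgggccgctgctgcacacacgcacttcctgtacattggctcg

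Other genes of mitochondrial and energy metabolism were counted in lists by function. Of 77 mitochondrial ribosomal protein genes tested, 6 rose and 0 fell, a smaller share than the background of 10.1%, although 65 were above 0 and the median log2 fold change was 0.11. *Mrpl34* was the only one called, at 6.54, 7.33 and 7.84 CPM in GFP and 11.5, 11.4 and 13.5 CPM in Ezh2 libraries. Of 20 complex IV assembly genes tested 0 passed, of 3 complex V assembly genes 0 passed, and of 6 other complex I assembly genes and 7 genes of complex III assembly with cytochrome c1 1 each fell, *Acad9* and *Ttc19*. Of 17 genes for mitochondrial DNA expression, such as *Tfam* and *Polrmt*, 0 rose and 1 fell, the DNA polymerase *Polg* at -0.17 ± 0.06 (SE). The medians of these lists ran from 0.02 to 0.08.

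Of 8 regulators of mitochondrial biogenesis, 1 rose and 1 fell, against backgrounds of 10.1% and 7.68%. *Esrra*, a nuclear receptor that drives respiratory chain genes, rose from 28.8, 29.9 and 26.2 CPM to 35.0, 35.5 and 42.1 CPM, by 0.33 ± 0.08 (SE) on the log2 scale. *Ppargc1a*, its coactivator, fell from 12.7, 13.9 and 16.1 CPM to 11.4, 9.71 and 8.70 CPM, a log2 fold change of -0.42 ± 0.13 (SE). In each of these genes the groups did not overlap, and with 6 libraries the edgeR adjusted p was 0.0541 for *Esrra* and 0.0873 for *Ppargc1a*. *Nrf1*, *Gabpa*, *Gabpb1*, *Yy1*, *Ppargc1b* and *Pprc1* did not pass.

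Of the carriers around the chain, *Slc25a5*, an adenine nucleotide carrier, rose by 0.35 ± 0.06 (SE), at 94.0 to 100.1 CPM in GFP and 114.9, 131.9 and 180.4 CPM in Ezh2 libraries, while its relative *Slc25a4* had -0.05 ± 0.05 (SE) and cytochrome c, *Cycs*, had 0.28 ± 0.10 (SE, edgeR adjusted p = 0.0551). Of 13 genes of the TCA cycle, 1 rose, *Mdh2*, against 10.1% of all genes tested. Of 10 membrane and chaperone genes, 3 rose, *Hspd1*, *Hspa9* and *Phb2*, against the same 10.1%. Of 16 glycolysis genes tested, 1 rose (*Hk2*) and 2 fell (*Pfkm* and *Pfkp*), against 10.1% and 7.68%, with a median of -0.03. With 6 libraries, 0 membrane and chaperone genes passed, and of the glycolysis genes 0 rose and 1 fell. *Hk2*, a hexokinase that can sit on mitochondria, was at 75.2, 79.2 and 75.8 CPM in GFP and at 101.7, 95.6 and 72.4 CPM in Ezh2 libraries.

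**Figure D5:**
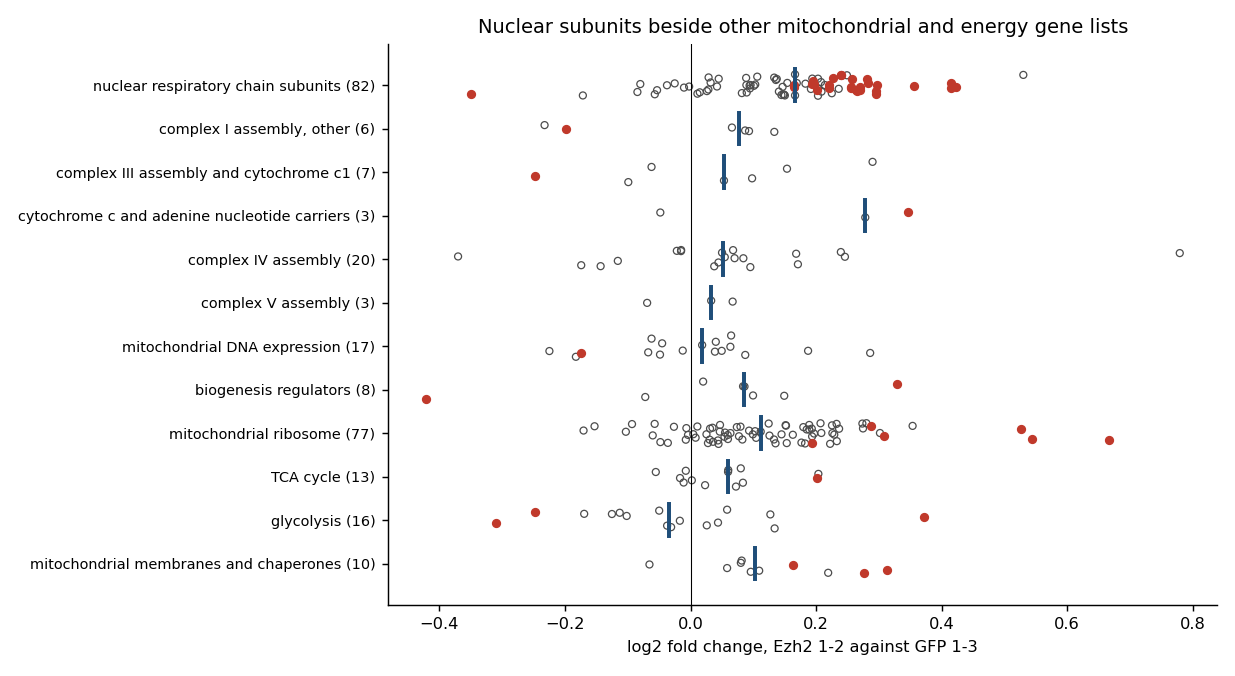
Log2 fold change in the 5 libraries (horizontal axis) of the tested nuclear respiratory chain subunits and of each list of other mitochondrial and energy genes, with the number tested in parentheses. Filled points passed an adjusted p of 0.05 and blue bars are medians, which lie at 0.17 for the subunits, at 0.11 for the mitochondrial ribosome and at -0.03 for glycolysis.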

How the data were processed

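The authors deposited raw read counts per gene for 6 libraries, 3 per group, from which all values here were computed. Per the labels, RNA was isolated with the PicoPure kit and libraries were made with a stranded total RNA kit, and the submitters' processing notes name STAR 2.7.0d and GRCm38. The counting program, strand setting and annotation release are not given in the sources used here. Identifiers were matched to GENCODE M21 (55480 of 55573), and 0 columns lacked a sample.

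Genes were kept by filterByExpr, libraries were scaled by TMM, and edgeR 4.0.16 was used for the test (R 4.3.3, robust quasi-likelihood F test, group as the only term, two-sided, Benjamini-Hochberg over all genes tested). SE came from the F statistic. CPM used library totals, and 3 counts equal 0.0834 to 0.0981 CPM, a floor that covers counting error only. On simulated counts of 19781 genes for the 5-library comparison, 199 of 200 changed genes were recovered, with 4 false calls. The changed genes had at least 100 counts on average and larger fold changes than any tested member, and all genes shared the same dispersion. Recovery of changes as small as those of the members was not simulated.

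The members and lists were chosen with earlier results of these data known. Genes named were the 13 mitochondrial-encoded genes, any called member, the 5 highest and 5 lowest nuclear log2 fold changes at a mean of at least 100 counts, alternative subunit genes and the lists. Other members were named after their values were seen. Of the glycolysis list, *Aldoa* had no matching row. With use of strand unknown, 32 nuclear symbols share exons with an antisense gene, and 5 overlap a gene on the same strand. Alternatives were other library sets, scalings, filters, DESeq2 1.42.0, limma 3.58.1 (voom), glmTreat and a replicate block. Scaling without the mitochondrial chromosome in the 6 libraries was added after seeing the data. A result for 1 member is not reported here.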

Additional observations from a re-analysis of the deposited data

Results flagged for a closer look

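Ezh2 replicate 3, which the main comparison left out, was examined for members well above GFP. Among those with at least 100 counts on average, 11 exceeded the highest GFP library by more than 1.5-fold. The share of all genes passing this rule is not given, so the 11 cannot be read as particular to the respiratory chain. Across genes, Ezh2 replicates 1 and 2 correlated with each other at 0.988, and with replicate 3 at 0.972 and 0.971. The complex I assembly factor *Ndufaf4* was at 23.1 CPM there, against 7.55 to 9.03 CPM in GFP and 7.30 to 9.45 CPM in Ezh2 replicates 1 and 2, and the complex II assembly factor *Sdhaf4* was at 14.7 CPM, against 5.34 to 7.72 CPM and 5.53 to 7.88 CPM. In both genes the other Ezh2 libraries spanned much of the GFP range.

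Among complex I subunits, replicate 3 held *Ndufb5* at 68.1 CPM (GFP at most 41.1), *Ndufs5* at 10.7 CPM (at most 5.88) and *Ndufs6* at 23.2 CPM (at most 14.6). *Uqcrfs1* of complex III was at 67.5 CPM (at most 40.9), and *Cox5a* and *Cox6b1* of complex IV were at 52.0 CPM (at most 31.4) and 90.3 CPM (at most 55.0). Of complex V, *Atp5d* was at 98.4 CPM (at most 64.9), *Atp5g1* at 51.6 CPM (at most 31.5) and *Atp5k* at 39.9 CPM (at most 24.6). With 1 library there is no replicate check of these values.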

How the results depend on the processing

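Of the nuclear medians, those of subunits and of complexes I to V stayed above 0 under every alternative run. The median of the mitochondrial-encoded genes turned to 0.0226 with 6 libraries, to 0.0208 with 6 libraries scaled without the mitochondrial chromosome and to 0.0082 with 6 libraries and a replicate block. The cause was not tested. In those fits the median was 0.211, 0.209 and 0.204 for nuclear subunits, 0.267, 0.264 and 0.265 for complex III, and 0.309, 0.307 and 0.298 for complex V. The difference of the mean log2 ratio of mitochondrial-encoded to nuclear sums was -0.32, and -0.18 with 6 libraries.

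Members called higher numbered 1 in the 6 libraries under either scaling, and 0 to 1 when 1 library was left out. Members rising numbered 4 in the 6 libraries under either scaling, 1 there with a replicate block, 0 by glmTreat, which tests against a fold change of 1.5, and 4 to 28 when 1 library was left out. Members falling numbered 1 in the 6 libraries under either scaling, 0 there with a replicate block, 5 by voom, 4 without a filter, 0 by glmTreat, and 2 to 6 when 1 library was left out. Mitochondrial-encoded genes falling numbered 0 in the 6 libraries under either scaling and with a block, 2 by DESeq2, 4 by voom, 2 with library totals alone, 3 without a filter, 0 by glmTreat, and 1 to 5 when 1 library was left out.

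When 1 library was left out, medians ran from 0.11 to 0.22 for nuclear subunits, 0.0273 to 0.173 for complex I, 0.17 to 0.26 for complex II, 0.12 to 0.30 for complex IV and 0.14 to 0.22 for complex V. The mitochondrial-encoded median ran from -0.2733, without GFP replicate 1, to -0.0993, without Ezh2 replicate 1. For assembly factors they ran from -0.14, without Ezh2 replicate 2, to 0.10. With 1 Ezh2 library left, it is assumed to vary like the GFP libraries. Deviations from the group mean correlated at -0.0199 to -0.0045 between libraries of the same replicate number. Ezh2 replicate 3, the library least like the others, enters the mean behind each Ezh2 deviation, so these values cannot exclude pairing. The replicate block in the 5 libraries gave 14 members rising, 4 falling and 3 mitochondrial-encoded genes falling. In that fit 1548 of 20241 genes tested rose and 1107 fell. With the block in 6 libraries, 401 of 19732 rose and 231 fell.

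Over 52 named genes, 670 alternative values kept direction and side of the threshold or had no call to lose, 186 no longer passed and 18 newly passed, and 0 genes that passed changed sign. A floor of 3 counts limits statements on the members with few counts.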
